A study of Mus musculus with 6 samples.

Results

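The genes described here are 10 that make fatty acids from acetyl units or control that process, chosen by symbol out of 37620 gene identifiers: Acly, Acaca, Acacb, Fasn, Me1, Acss2, Srebf1, Mlxipl, Thrsp and G6pdx. All 10 were found by Ensembl identifier, and all 10 passed the filter on low counts that left 12068 genes for testing. RNA was sequenced from mature brown fat cells of C57BL/6 mice aged 6 weeks, collected as the floating layer after collagenase digestion. The 3 wild-type libraries and the 3 libraries labelled as PHOSPHO1 knockout were each a pool of 3 mice. In the mouse genome Acly, Acaca, Fasn and Srebf1 lie on chromosome 11, Acacb and Mlxipl on 5, Me1 on 9, Acss2 on 2, Thrsp on 7 and G6pdx on X. PHOSPHO1 is a phosphatase of phosphocholine and phosphoethanolamine. How the knockout allele was built, and in which cells it is lost, is not stated in the labels.

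Fatty acid synthesis runs in the cytosol. Citrate exported from mitochondria is cleaved to acetyl-CoA, acetyl-CoA carboxylase makes malonyl-CoA, and fatty acid synthase joins these units into palmitate with reducing power from NADPH. A pair of transcription factors, SREBP-1 (downstream of insulin) and ChREBP (responsive to glucose), switch the enzyme genes on together. Brown fat makes fatty acids at a high rate as well as burning them, and malonyl-CoA also restrains the entry of fatty acids into mitochondria.

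The starts of a few of these genes show which short motifs lie near them. The 250 bases before each RefSeq start (GRCm38.p6, 14 starts for the 10 genes) were searched on both strands for CACGTG (the E-box bound by SREBP-1, ChREBP and others), TCACNCCAC (a sterol regulatory element core), CCAAT (bound by NF-Y), the GC box GGGCGG (bound by Sp1), the TATA box TATAAA and a direct repeat of AGGTCA spaced by 4 bases (the form bound by thyroid hormone receptor). Fasn and Thrsp are shown as a strongly expressed enzyme gene and regulator gene whose fold changes had opposite signs, and both starts of Mlxipl as the only windows of these genes with CACGTG or TCACNCCAC. Capitals mark every match on either strand. The Fasn window lies at chr11:120824548-120824797 (minus strand), the Thrsp window at chr7:97417551-97417800 (minus strand), and the Mlxipl windows at chr5:135089640-135089889 and chr5:135106641-135106890 (plus strand).
Fasn: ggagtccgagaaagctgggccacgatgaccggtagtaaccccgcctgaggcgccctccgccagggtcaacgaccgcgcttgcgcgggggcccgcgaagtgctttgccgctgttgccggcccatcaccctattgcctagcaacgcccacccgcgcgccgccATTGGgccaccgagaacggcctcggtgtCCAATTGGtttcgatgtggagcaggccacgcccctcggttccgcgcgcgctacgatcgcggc
Thrsp: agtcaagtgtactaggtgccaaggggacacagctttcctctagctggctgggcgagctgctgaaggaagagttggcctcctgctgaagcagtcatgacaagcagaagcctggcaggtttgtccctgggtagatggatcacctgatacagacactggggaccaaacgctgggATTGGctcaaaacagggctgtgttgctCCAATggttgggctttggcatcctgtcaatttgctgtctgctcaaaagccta
Mlxipl, first start: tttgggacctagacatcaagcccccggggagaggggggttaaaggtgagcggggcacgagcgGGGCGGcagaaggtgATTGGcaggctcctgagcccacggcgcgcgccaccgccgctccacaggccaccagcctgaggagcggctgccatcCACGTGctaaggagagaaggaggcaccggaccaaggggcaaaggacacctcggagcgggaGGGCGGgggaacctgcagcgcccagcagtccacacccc
Mlxipl, second start: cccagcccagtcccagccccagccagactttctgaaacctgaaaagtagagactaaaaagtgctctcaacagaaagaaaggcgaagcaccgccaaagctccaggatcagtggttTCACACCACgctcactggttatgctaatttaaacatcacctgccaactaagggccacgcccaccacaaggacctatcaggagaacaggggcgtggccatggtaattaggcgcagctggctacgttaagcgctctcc
The Fasn window held 3 CCAAT matches, the last 2 of which overlap, and the Thrsp window held 2. CCAAT was found at 7 of the 10 genes (33.8% of all 32851 windows of the same length held it) and GGGCGG at 6 (32.7%). Counted by window, these were 8 and 7 of the 14. CACGTG and TCACNCCAC were found at 1 gene each, Mlxipl, against 6.02% and 1.05% of all windows, TATAAA at Acacb alone (12.4%), and the direct repeat at none (0.0152%). A match is a run of letters and not a shown binding site, and sites outside these windows were not searched. The only windows of Acaca (chr11:84195188-84195437) and Acacb (chr5:114165268-114165517) lie inside these plus-strand genes, whose annotated starts are 84129672 and 114146535. The only window of G6pdx (chrX:74428881-74429130) likewise lies inside that minus-strand gene, which starts at 74429194. The bases just before the annotated starts of Acaca, Acacb and G6pdx were therefore not searched. The only windows of Thrsp and Acss2 lie partly inside those genes, whose annotated starts are 97417730 and 155517948.

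Library totals ranged from 10576800 to 14239307 counts, and genes of the mitochondrial genome took 39.1% to 56.5% of them. Counts of Phospho1 were 13, 5 and 5 in wild type and 18, 15 and 17 in the libraries labelled knockout, and most of its exonic bases are shared with neighbouring genes, so its counts check the labels little. Directions are therefore given for the libraries as labelled. Genes with long transcripts were lower in these libraries: the median log2 fold change was 0.59 in the shortest decile of transcript length and -0.78 in the longest. The slope of each library's log2 level (relative to the mean of all libraries) on log2 length was 0.306, -0.025 and 0.300 in wild type 1, 2 and 3 and -0.238, -0.093 and -0.249 in the knockout-labelled libraries. Members and most other genes are therefore also given with offsets that remove the trend with GC content and the length of the longest transcript ("the offsets"). With offsets on the median transcript length instead, several values differed widely, and these are given where they do. The adipocyte markers were present in every library (10 of 10 tested, summed level 22065 to 28119 CPM in wild type and 19912 to 29899.8 CPM in the knockout-labelled libraries).

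Of the 10 genes, 0 passed the threshold between the groups (edgeR quasi-likelihood test, adjusted p under 0.05), against 9.16% of all tested genes (1.63% higher, 7.52% lower). Acaca and Acacb had an unadjusted p under 0.05 in edgeR, as did 3718 of all 12068 tested genes. Limma-voom called 0 of the 10, against 113 higher and 619 lower of all 12068 genes. DESeq2 called 1, Acaca, against 493 higher and 1350 lower of 21242 genes. The fold change was negative for 9 of the 10, among them G6pdx at zero to 2 decimals, against 48.6% of all tested genes. The median log2 fold change of the 10 was -0.50, and that of all tested genes 0.03. Total counts alone in place of TMM scaling moved the median of all genes to -0.23, so directions are relative to the scaling. With the offsets, 0 of the 10 passed, against 1 of all 12068 genes. A negative fold change was found for 9 (47.6% of all genes), now with Fasn at 0.08 and Thrsp at -0.04. The median of the 10 was -0.25 and that of all genes 0.03. With median-transcript offsets 0 of the 10 passed, against 112 higher and 180 lower of all 12068 genes, but the median of the 10 was -0.54 (all genes 0.06). Of the 10, 4 had an unadjusted p under 0.05 in edgeR, against 3140 of all 12068 genes. Between these offsets, only those on the longest transcript gave a smaller median. In whole fractions of floating cells, fewer cells of a type and less RNA per cell cannot be told apart.

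**Figure D1:**
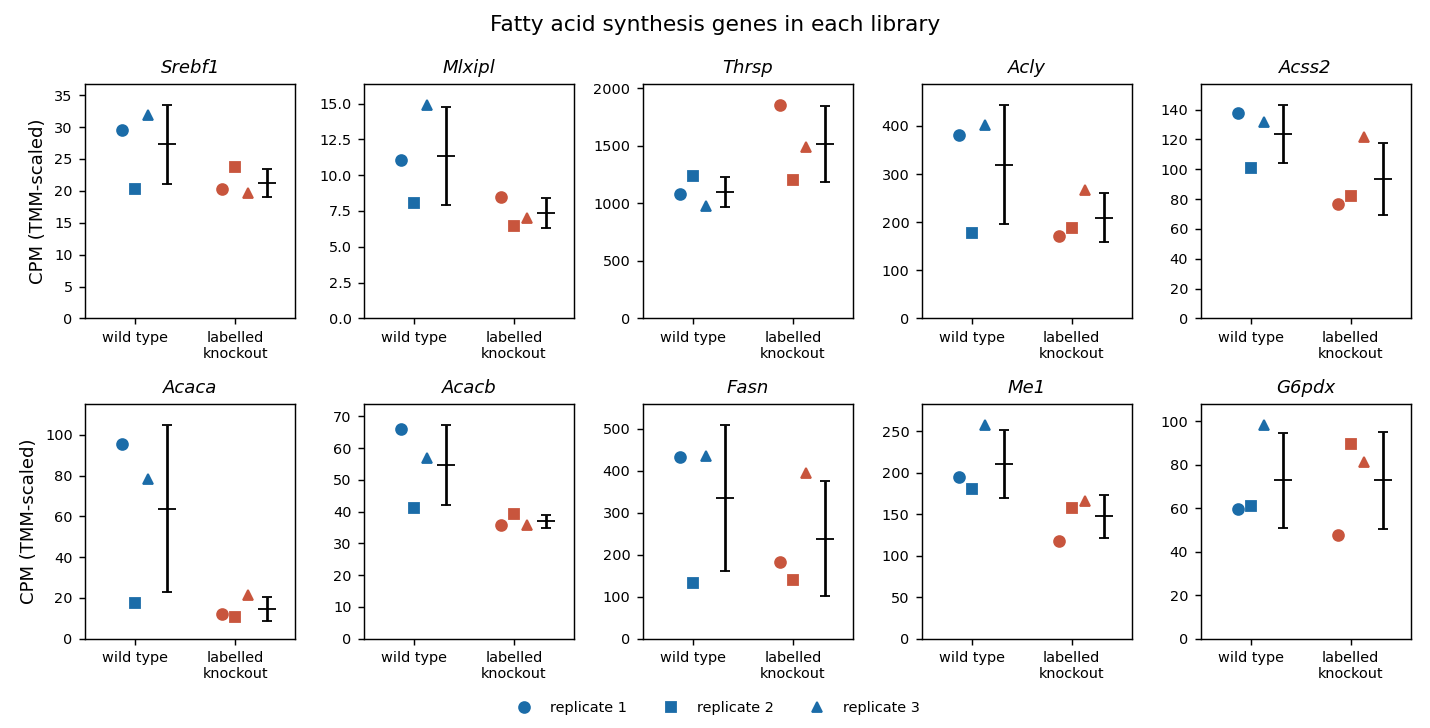
Level of each of the 10 genes in CPM on TMM-scaled library sizes (vertical axes, each starting at 0) in the 3 wild-type (blue) and 3 knockout-labelled (red) libraries, with symbols for the replicate number and black bars for the mean ± SD. Wild type 2 lies below wild type 1 and 3 for 8 genes, and far below them for Acaca, Fasn and Acly.

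Per kilobase of the longest transcript, the order of the 10 genes in wild type ran from Thrsp, at 786 ± 93.5 CPM per kilobase (SD, n = 3), through Acly at 72.2 ± 28.0, Me1 at 64.0 ± 12.4, Acss2 at 34.2 ± 5.42, Fasn at 33.2 ± 17.3 and G6pdx at 27.5 ± 8.26. Acaca (6.70 ± 4.31), Srebf1 (6.34 ± 1.44), Acacb (6.21 ± 1.44) and Mlxipl (3.13 ± 0.947) had the lowest levels per kilobase. Thrsp lay above the other 9 genes in every library. Of the neighbours in that order, Acly and Me1 overlapped in their wild-type ranges, as did Acss2, Fasn and G6pdx, and Acaca, Srebf1 and Acacb. Me1 lay above Acss2, G6pdx above Acaca and Acacb above Mlxipl in every wild-type library. In the knockout-labelled libraries Acaca had the lowest level, 1.53 ± 0.628 CPM per kilobase, with Mlxipl next at 2.03 ± 0.286. Their ranges overlapped, since Mlxipl was the lower of the pair in knockout-labelled library 3, and with median transcript lengths Mlxipl was lowest in place of Acaca. These levels divide by the longest annotated transcript, and with the median transcript length 5 of the 10 genes kept their place in wild type and 3 in the knockout-labelled libraries.

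Among the regulators, the gene for SREBP-1 and the gene for ChREBP were expressed at low levels, and neither passed the test. Srebf1, which encodes SREBP-1a and SREBP-1c from separate starts, had 29.6, 20.3 and 31.9 CPM in the wild-type libraries 1, 2 and 3 and 20.3, 23.8 and 19.6 CPM in the knockout-labelled libraries. Wild type 2 lay within the knockout-labelled range, and the other wild-type libraries lay above it. The group means were 27.3 ± 6.18 and 21.2 ± 2.23 CPM (SD, n = 3 each), a log2 fold change of -0.36 ± 0.25 (standard error, edgeR adjusted p = 0.342). With the offsets it was -0.30 ± 0.19 (standard error, edgeR adjusted p = 0.362). With median-transcript offsets it was -0.79 (edgeR adjusted p = 0.094), and with length offsets alone -0.025 (0.952). The counts are per gene and do not separate the 2 forms.

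Mlxipl, the gene for ChREBP, had 11.1, 8.05 and 14.9 CPM in the wild-type libraries 1, 2 and 3 and 8.49, 6.48 and 7.05 CPM in the knockout-labelled libraries. The groups overlapped only through wild type 2 and knockout-labelled library 1. The log2 fold change was -0.62 ± 0.30 (standard error, edgeR adjusted p = 0.174) and with the offsets -0.66 ± 0.26 (standard error, edgeR adjusted p = 0.161), so the value hardly moved with them. With length offsets alone it was smaller, at -0.44 (edgeR adjusted p = 0.329). A shorter, highly active form of ChREBP arises from an alternative start, and gene counts do not tell it from the full-length form. An antisense gene shares 4.24% of the annotated exonic bases of Mlxipl, and without the strand setting its reads cannot be told apart.

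Thrsp, also called Spot 14, is a small protein of lipogenic tissues that responds to thyroid hormone and activates fatty acid synthesis together with its relative Mid1ip1. It had 1082, 1239.6 and 979.7 CPM in the wild-type libraries 1, 2 and 3 and 1855, 1200.4 and 1489.8 CPM in the knockout-labelled libraries. Knockout-labelled libraries 1 and 3 lay above all wild-type libraries, and library 2 lay within their range. The log2 fold change was 0.46 ± 0.25 (standard error, edgeR adjusted p = 0.222), the only positive value among the 10 genes. Thrsp also has the shortest transcript of the 10 (1400 bases), and the median of its length decile was 0.46. With the offsets Thrsp stood at -0.04 ± 0.18 (standard error, edgeR adjusted p = 0.928), and with median-transcript offsets at 0.31 (edgeR adjusted p = 0.407). Mid1ip1 had 24.8, 26.1 and 19.9 CPM in the wild-type libraries 1, 2 and 3 and 32.2, 31.6 and 34.5 CPM in the knockout-labelled libraries, so its groups did not overlap, with a log2 fold change of 0.47 ± 0.23 (standard error, edgeR adjusted p = 0.183) and 0.03 with the offsets (adjusted p = 0.932).

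The 2 enzymes that supply cytosolic acetyl-CoA had lower means in the knockout-labelled libraries, and the groups overlapped for both. Acly, ATP citrate lyase, had 380.5, 177 and 401 CPM in the wild-type libraries 1, 2 and 3 and 172, 189 and 267 CPM in the knockout-labelled libraries. Wild type 2 lay between knockout-labelled libraries 1 and 2, while wild type 1 and 3 lay above every other library. The means were 319.5 ± 124 and 209 ± 50.9 CPM (SD, n = 3 each), a log2 fold change of -0.61 ± 0.32 (standard error, edgeR adjusted p = 0.210). Without wild type 2 it was -0.90 and passed the threshold (edgeR adjusted p = 0.042), over the other alternatives the adjusted p lay at 0.107 to 0.685, and with the offsets the log2 fold change was -0.40 (adjusted p = 0.387). With median-transcript offsets it was -0.66 (edgeR adjusted p = 0.191).

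Acss2, which makes acetyl-CoA from acetate in the cytosol and nucleus, had 137, 101 and 132 CPM in the wild-type libraries 1, 2 and 3 and 76.9, 82.3 and 121 CPM in the knockout-labelled libraries. Knockout-labelled library 3 lay within the wild-type range and the other 2 below it. The log2 fold change was -0.40 ± 0.25 (standard error, edgeR adjusted p = 0.288) and with the offsets -0.22 ± 0.23 (standard error, edgeR adjusted p = 0.591), or -0.42 with median-transcript offsets (edgeR adjusted p = 0.257). Annotated exons of Gss, an antisense transcript and Ggt7 on the opposite strand share 3.89%, 3.30% and 1.94% of the exonic bases of Acss2.

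Acaca, acetyl-CoA carboxylase 1, makes the malonyl-CoA used for synthesis, and it had the largest difference of the 10 genes. It had 95.4, 17.3 and 78.4 CPM in the wild-type libraries 1, 2 and 3 and 11.9, 10.4 and 21.4 CPM in the knockout-labelled libraries, from 1691, 254 and 874 counts and 135, 127 and 210 counts. Wild type 1 and 3 stood far above the other 4 libraries, and wild type 2 lay below knockout-labelled library 3. The means were 63.7 ± 41.0 and 14.6 ± 5.97 CPM (SD, n = 3 each), a log2 fold change of -2.13 ± 0.57 (standard error, edgeR adjusted p = 0.053), just outside the threshold. Wild type 1 was 5.50 times wild type 2, so the spread within wild type was larger than the 4.37-fold difference between the fitted group means.

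The call for Acaca depended on the fit. It passed with total counts alone (-2.43, edgeR adjusted p = 0.019), without mitochondrial genome genes (-2.15, 0.049), with DESeq2 (-2.15, 0.00027), and without wild type 2 (-2.57, 0.013). It did not pass in the other fits without a block, where the adjusted p lay at 0.052 to 0.25 and the log2 fold change at -2.53 to -1.18. With the offsets it was -1.33 ± 0.43 (standard error, edgeR adjusted p = 0.113), and with median-transcript offsets -2.16 (edgeR adjusted p = 0.084). Among the 1187 genes of the longest length decile, 2.86% had a lower fold change than Acaca.

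Acacb, acetyl-CoA carboxylase 2, is bound to mitochondria and makes the malonyl-CoA that restrains fatty acid oxidation. It had 66.0, 41.0 and 56.7 CPM in the wild-type libraries 1, 2 and 3 and 35.7, 39.4 and 35.6 CPM in the knockout-labelled libraries. All knockout-labelled libraries lay below all wild-type libraries, as for 19.6% of all tested genes, and wild type 2 was only just above them. The log2 fold change was -0.56 ± 0.24 (standard error, edgeR adjusted p = 0.139). With the offsets it was -0.08 ± 0.19 (standard error, edgeR adjusted p = 0.841), with median-transcript offsets -0.20 (adjusted p = 0.559), and with an offset for length alone it turned to 0.23 (adjusted p = 0.433). Acacb is also abundant in muscle, and skeletal muscle markers summed to 1132 CPM in wild type 3 against 43.9 to 122.7 CPM in the other libraries (10 of 10 matched, none at 0 in all libraries). The part of muscle RNA in the Acacb values was not tested.

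The balance of the 2 carboxylase genes, the ratio of Acacb to Acaca per kilobase, was 0.749, 2.56 and 0.783 in wild type 1, 2 and 3 and 3.24, 4.09 and 1.80 in the knockout-labelled libraries. Acaca was therefore the higher of the pair in wild type 1 and 3, and Acacb in the other 4 libraries. The groups overlapped through wild type 2, and the ratio of the CPM of the same genes gave p = 0.2 in a two-sided exact permutation test (0.1 is the lowest value possible with 3 against 3). With median transcript lengths Acaca was higher in all 6 libraries, so which carboxylase gene leads depends on the length used, but the order of the libraries does not.

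Fasn, fatty acid synthase, had 434, 133 and 436 CPM in the wild-type libraries 1, 2 and 3 and 182, 139.7 and 393 CPM in the knockout-labelled libraries. High and low libraries occurred in both groups: wild type 1 and 3 and knockout-labelled library 3 were at 393.2 CPM or more, and the other 3 libraries at 181.9 CPM or less. The means were 334 ± 174 and 238 ± 136 CPM (SD, n = 3 each), a log2 fold change of -0.49 ± 0.48 (standard error, edgeR adjusted p = 0.502). The value rested on single libraries, since without knockout-labelled library 3 it was -1.08 (adjusted p = 0.215) and without knockout-labelled library 2 it was -0.23 (adjusted p = 0.793). The sign depended on the length used for the offsets: it was 0.08 ± 0.36 (standard error, edgeR adjusted p = 0.915) with the longest transcript and -0.91 ± 0.51 (standard error, edgeR adjusted p = 0.289) with the median transcript, which is 869 bases for Fasn.

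Acaca and Fasn have transcripts of similar length (9513 and 10050 bases), and both lie in the longest decile, but their GC content differs (49.1% and 57.9%). The ratio of Fasn to Acaca in CPM, which does not depend on library scaling, was 4.55, 7.67 and 5.55 in wild type 1, 2 and 3 and 15.2, 13.4 and 18.3 in the libraries labelled knockout. The groups did not overlap, with means of 5.92 ± 1.59 and 15.7 ± 2.49 (SD, n = 3 each; two-sided exact permutation test, p = 0.1, the lowest value possible with 3 against 3). The same ratio for Acly was 3.99, 10.2 and 5.11 in wild type 1, 2 and 3 and 14.4, 18.1 and 12.5 in the libraries labelled knockout, also without overlap (exact permutation p = 0.1), and for Me1 the groups overlapped. In all, 3 of the other 9 genes (Fasn, Acly and G6pdx) had a ratio to Acaca above wild type in every knockout-labelled library, against 29.2% of all other tested genes and 17.5% of those in the longest decile. Across the 9 ratios the exact p values were 0.1 for 3, 0.2 for 5 and 0.3 for 1, and none could pass an adjustment over 9 tests in this design. Acaca became the denominator after its fall, the largest among these genes, was seen. A higher ratio in the knockout-labelled libraries is therefore largely built in. The log2 difference was positive for all 9, from 1.28 (Mlxipl) to 2.31 (Thrsp), so these p values are a description only.

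**Figure D2:**
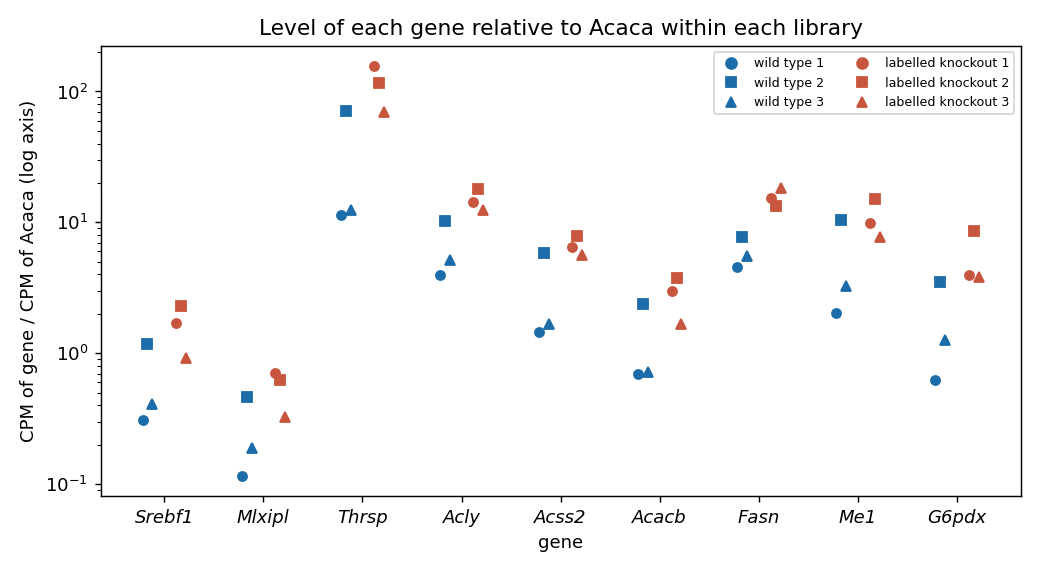
Ratio of the CPM of each gene to the CPM of Acaca in the same library (vertical log axis) for the other 9 genes (horizontal axis), with blue for wild type, red for the knockout-labelled libraries and symbols for the replicate number. For Fasn the wild-type ratios lie between 4.55 and 7.67 and the knockout-labelled ratios between 13.4 and 18.3, while wild type 2 is the highest wild-type point for every gene.

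The 2 genes that supply NADPH differed from each other in pattern. Me1, cytosolic malic enzyme, had 194, 181 and 257 CPM in the wild-type libraries 1, 2 and 3 and 118, 157 and 166 CPM in the knockout-labelled libraries. All knockout-labelled libraries lay below all wild-type libraries, with a narrow gap between wild type 2 and knockout-labelled library 3. The means were 211 ± 40.8 and 147 ± 25.5 CPM (SD, n = 3 each), a log2 fold change of -0.52 ± 0.24 (standard error, edgeR adjusted p = 0.168), and -0.28 ± 0.23 (standard error, edgeR adjusted p = 0.505) with the offsets, or -0.18 with median-transcript offsets (edgeR adjusted p = 0.646). Me1 and Acacb were the 2 of 10 genes whose groups did not overlap with the knockout-labelled libraries lower, and for 0 of the 10 were they all higher, against 19.6% and 15.8% of all tested genes.

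G6pdx, glucose-6-phosphate dehydrogenase, is the first enzyme of the pentose phosphate pathway and lies on the X chromosome. It had 59.7, 61.0 and 98.3 CPM in the wild-type libraries 1, 2 and 3 and 47.7, 89.7 and 81.5 CPM in the knockout-labelled libraries. The lowest value was in knockout-labelled library 1 and the highest in wild type 3, and the other libraries of both groups were mixed between them. The means were 73.0 ± 21.9 and 73.0 ± 22.3 CPM, and the log2 fold change was 0.00 (SE 0.29). With the offsets it was -0.21 ± 0.28 (standard error, edgeR adjusted p = 0.690). Reads of its retrogene copy G6pd2 were few (4, 1 and 3 counts in wild type and 2, 2 and 0 in the knockout-labelled libraries), and Ikbkg on the opposite strand shares 13.6% of the annotated exonic bases of G6pdx. Without the counting rules, reads from these genes cannot be told apart.

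**Figure D3:**
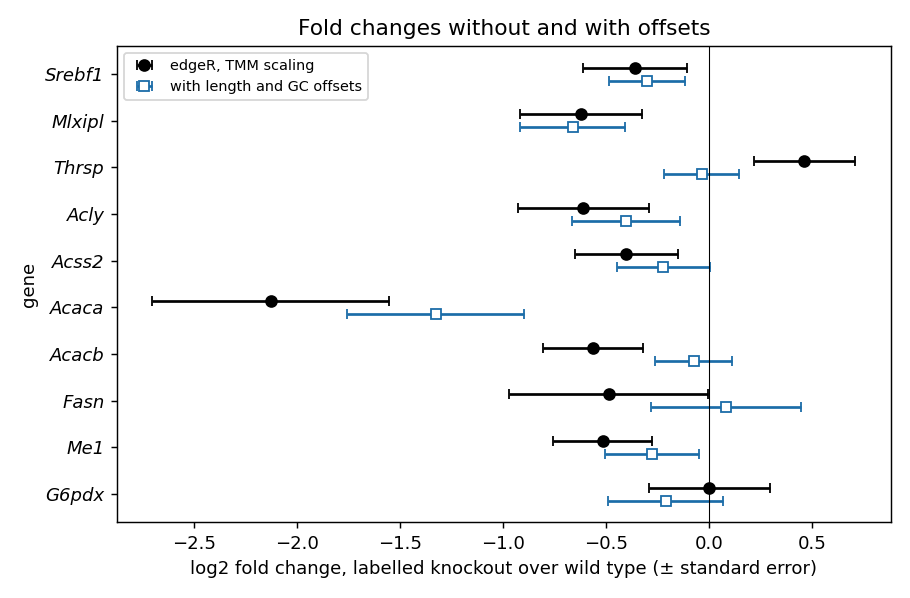
Log2 fold change of each of the 10 genes (horizontal axis; knockout-labelled over wild type, ± standard error) from edgeR with TMM scaling (black circles) and with length and GC offsets (open blue squares). Acaca moves from -2.13 to -1.33, Acacb from -0.56 to -0.08 and Thrsp from 0.46 to -0.04, while Mlxipl stays near -0.62 to -0.66.

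The 10 genes span much of the range of transcript length, and their fold changes can be set beside other genes of like length. Acaca lay 1.35 below the median log2 fold change of its decile (-0.78), and Mlxipl 0.55 and Me1 0.45 below theirs (-0.07). Acacb and Fasn lay 0.21 and 0.29 above the median of the same longest decile, and Thrsp lay within 0.01 of its own. Acly, Acss2, Srebf1 and G6pdx lay 0.17 to 0.33 below theirs.

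**Figure D4:**
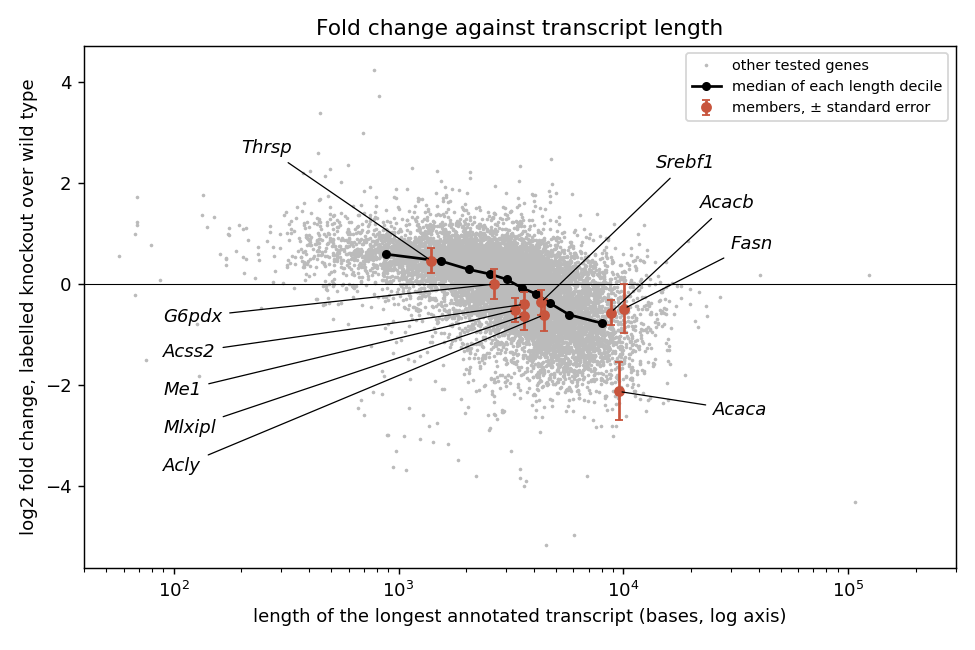
Log2 fold change (vertical axis; knockout-labelled over wild type) against the length of the longest annotated transcript in bases (horizontal log axis) for the tested genes with a length (grey), the medians of the 10 length deciles (black line) and the 10 genes with their standard errors (red). Acaca lies well below the line, and Thrsp, Acacb and Fasn lie on it or above it.

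Wild type 2 took the same place for most of the 10 genes, an order noticed after the values were seen. Wild type 2 was the lowest wild-type library for 8 of the 10 (for all but Thrsp and G6pdx), as it was for 37.9% of all tested genes. Wild type 1 exceeded wild type 2 by more than 2-fold for 3 of the 10 (Acly, Acaca and Fasn), against 6.21% of tested genes. The knockout-labelled libraries were more mixed. Library 3 was the highest of that group for 5 (Acly, Acaca, Fasn, Me1 and Acss2), against 32.8%, and the lowest for 2 (Acacb and Srebf1), against 36.2%. Libraries 1 and 2 were the lowest for 4 each, against 34.3% and 29.4%. The slope of wild type 2 on transcript length lay between those of the other wild-type libraries and those of the knockout-labelled ones, and its part in this order was not tested.

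The wider pathway was read from lists of other genes in the same fit. The calls in these lists depend on which libraries are kept: without wild type 1, 0 of all tested genes fell (1622 at an unadjusted p under 0.05 in edgeR), and without knockout-labelled library 3 also 0 (1850). Of citrate, acetyl-CoA and NADPH supply, 26 genes were tested (30 listed). In edgeR 0 rose and 0 fell, against 1.63% and 7.52% of all tested genes. An unadjusted p under 0.05 was found for 6 in edgeR, against 3718 of all 12068 genes. DESeq2 called 1 lower and limma-voom 0, and the median log2 fold change was 0.22. Beside the list counts here and below, DESeq2 called 493 higher and 1350 lower of 21242 genes. Limma-voom called 113 higher and 619 lower of 12068. Acss3, a mitochondrial short-chain acyl-CoA synthetase, was at -1.14 ± 0.39 (standard error, edgeR adjusted p = 0.078). Mdh2, mitochondrial malate dehydrogenase, was at 0.61 ± 0.23 (standard error, edgeR adjusted p = 0.104). H6pd, the glucose-6-phosphate dehydrogenase of the endoplasmic reticulum, was at -0.63 ± 0.26 (standard error, edgeR adjusted p = 0.127). With the offsets the list had a median of 0.02 and these genes were at -0.50, 0.21 and -0.49.

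Among 17 tested cofactor enzymes, partners and opposing enzymes of the carboxylases and the synthase (20 listed), 2 fell and 0 rose (7.52% of all tested genes fell and 1.63% rose), with a median of 0.08. Hlcs, the ligase that attaches biotin to both carboxylases, had 3.10, 2.18 and 3.77 CPM in the wild-type libraries 1, 2 and 3 and 0.531, 1.07 and 1.12 CPM in the knockout-labelled libraries, without overlap, and fell by 1.72 on the log2 scale (SE 0.42, edgeR adjusted p = 0.032). Prkaa2, a catalytic subunit of AMPK, the kinase that inhibits the carboxylases, had 16.5, 10.5 and 20.9 CPM in the wild-type libraries 1, 2 and 3 and 4.95, 6.97 and 2.14 CPM in the knockout-labelled libraries and fell by 1.76 (SE 0.40, edgeR adjusted p = 0.026). With the offsets 1 of all 12068 genes was called, and both of these lost the call. They were at -1.36 (edgeR adjusted p = 0.070) and -0.77 (edgeR adjusted p = 0.195). With median-transcript offsets they were at -1.43 and -0.64 (edgeR adjusted p = 0.060 and 0.227). Prkab1, a regulatory AMPK subunit, was at 0.83 ± 0.27 (standard error, edgeR adjusted p = 0.069), and 0.42 with the offsets (adjusted p = 0.309).

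Of 18 tested genes of SREBP processing and stability (19 listed), 1 fell and 0 rose (0 with limma-voom and 1 lower with DESeq2), against 7.52% and 1.63% of all tested genes, with a median of -0.19 that turned to 0.14 with the offsets. The one that fell was Lpin1, a phosphatidate phosphatase that also restrains nuclear SREBP, at -0.996 ± 0.26 (standard error, edgeR adjusted p = 0.039), and -0.59 with the offsets (adjusted p = 0.102). Insig1, which holds the SREBP complex in the endoplasmic reticulum and is itself an SREBP target, had 125, 124 and 143 CPM in the wild-type libraries 1, 2 and 3 and 103, 94.2 and 78.8 CPM in the knockout-labelled libraries. Its groups did not overlap, with a log2 fold change of -0.50 ± 0.22 (standard error, edgeR adjusted p = 0.145) and -0.56 with the offsets (adjusted p = 0.114). Mbtps2, the protease that releases SREBP from the membrane, was at -1.05 ± 0.42 (standard error, edgeR adjusted p = 0.121), and -0.39 with the offsets (adjusted p = 0.538). With median-transcript offsets Lpin1 was at -0.62 and no longer passed (edgeR adjusted p = 0.090), while Rnf139, a ubiquitin ligase of the endoplasmic reticulum named after its value was seen, rose by 1.27 (adjusted p = 0.047).

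Of 27 partner and upstream factors of the regulators, 3 fell and 0 rose, against 7.52% and 1.63% of all tested genes, with a median of 0.16. Thrb, a thyroid hormone receptor, was at -1.78 ± 0.32 (standard error, edgeR adjusted p = 0.017). Insr, the insulin receptor, was at -1.64 ± 0.33 (standard error, edgeR adjusted p = 0.019), and Sp1, a factor that binds GC boxes, at -1.37 ± 0.32 (standard error, edgeR adjusted p = 0.029). With the longest-transcript offsets, where 1 of all 12068 genes was called, none passed, and Thrb, Insr and Sp1 were at -1.03, -0.84 and -0.49 (adjusted p = 0.064, 0.079 and 0.232). With median-transcript offsets these 3 genes passed, at -1.94, -1.41 and -1.454 (edgeR adjusted p = 0.045, 0.049 and 0.049).

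The separate mitochondrial pathway of fatty acid synthesis makes the precursor of lipoic acid. Among its 9 tested genes edgeR gave 0 calls, against 9.16% of all tested genes, with a median of 0.34. An unadjusted p under 0.05 in edgeR was found for 1, against 3718 of all 12068 genes. DESeq2 called 1 higher and limma-voom 0. In 5 of the 9 all knockout-labelled libraries lay above all wild-type libraries, against 15.8% of tested genes, and with the offsets the median was 0.07. Lipt2, Mcat and Mecr, the 3 with the smallest p, had log2 fold changes of 0.97, 0.57 and 0.48, and 0.58, 0.08 and -0.12 with the offsets.

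Downstream, of 15 tested desaturase, elongase and esterification genes (16 listed) 4 fell and 0 rose, against 7.52% and 1.63% of all tested genes, among them Lpin1. Elovl6, which elongates palmitate, the product of Fasn, had 223, 76.6 and 137 CPM in the wild-type libraries 1, 2 and 3 and 53.3, 55.1 and 60.3 CPM in the knockout-labelled libraries. Wild type 2 was again the lowest wild-type library but lay above all knockout-labelled ones, and the log2 fold change was -1.37 ± 0.33 (standard error, edgeR adjusted p = 0.031). Scd1, which desaturates the products, had 11130.5, 5383 and 13788 CPM in the wild-type libraries 1, 2 and 3 and 2608, 3845 and 3386 CPM in the knockout-labelled libraries, with a log2 fold change of -1.62 ± 0.35 (standard error, edgeR adjusted p = 0.022). Scd2, its close relative, was at -1.15 ± 0.26 (standard error, edgeR adjusted p = 0.024). With the longest-transcript offsets 1 of all 12068 genes was called, and these genes no longer passed. They were at -0.60 for Elovl6 (edgeR adjusted p = 0.227), -1.18 for Scd1 (0.064) and -0.74 for Scd2 (0.066). With median-transcript offsets Scd1 passed at -2.00 (edgeR adjusted p = 0.046), and Elovl6 and Scd2 did not, at -1.03 and -0.74 (0.075 and 0.063). The median of the list was 0.07, and -0.17 with the offsets. In this list limma-voom called 2 lower and 0 higher, against 619 and 113 of 12068 genes. DESeq2 called 5 lower and 1 higher, against 1350 and 493 of 21242.

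Summed levels of several marker lists differed without overlap between the groups. These sums, and the single markers said to rise or fall, are without offsets. Fold changes ran with transcript length (median log2 fold change 0.59 in the shortest decile and -0.78 in the longest). The part of length in the marker values was not tested. Brown adipocyte markers (10 of 10 matched) summed to 4580.4 to 7214 CPM in wild type and 7773 to 9647 CPM in the knockout-labelled libraries. Without Ucp1 the sums only just did not overlap (2163 to 3926 and 3956 to 4774 CPM). Single brown markers went both ways: Cox7a1 rose, and Ppargc1a, Dio2 and Ebf2 fell. White adipocyte markers (9 of 9 matched; Hoxc10 at 0 in all libraries) summed to 335 to 475 CPM in wild type and 156 to 289 CPM in the knockout-labelled libraries. Macrophage and leukocyte markers (10 of 10; none at 0 in all libraries) summed to 97.5 to 193 CPM in wild type and 215 to 486 CPM in the knockout-labelled libraries, mostly Lyz2, and without Lyz2 they overlapped (25.1 to 34.5 and 18.4 to 28.8 CPM). Lyz2 rose, while Cd163, at 4.04 CPM or less in every library, fell. Endothelial markers (10 of 10) summed to 669 to 786 CPM in wild type and 894 to 980.4 CPM in the knockout-labelled libraries. Among them Gpihbp1 rose and Tek fell, and without Gpihbp1 the sums overlapped (369 to 562 and 426 to 492 CPM). Stromal markers (10 of 10) summed to 911 to 1037 CPM in wild type and 1148 to 1508 CPM in the knockout-labelled libraries, and without Ly6a, which rose with Cd34, these sums overlapped too (767 to 937 and 911 to 1106 CPM). Leaving out the leading marker was chosen after the values were seen. The part of other cells in the values above was not tested. Erythroid markers overlapped, at 366 to 1378 CPM in wild type and 1210.1 to 3506 CPM in the knockout-labelled libraries. Without Hbb-bs they did not overlap (96.6 to 300 and 308 to 831 CPM), and Hba-a1 and Alas2 rose. Mural markers (10 of 10) overlapped, at 933 to 1385 CPM in wild type and 567 to 1035 CPM in the knockout-labelled libraries. Without Rgs5 they did not (219 to 240 and 303 to 421 CPM), and Acta2, Tagln and Myl9 rose while Abcc9 fell. Markers of mammary epithelium, another tissue that makes fatty acids, were at or near 0 (8 of 8 matched, 4 at 0 in all libraries, summed level at most 0.41 CPM).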

How the data were processed

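RNA from 6 libraries (3 wild type, 3 labelled knockout; each a pool of 3 mice) was analysed. For each library the authors deposited whole-number counts for Ensembl genes, with no normalization. Per the submitters' processing notes, STAR 2.5.4b and mm9 were used. The sources used here name no counting program, strand setting or annotation release. Totals were 10576800 to 14239307 counts, which limits precision for genes with few counts, and no 2 libraries were identical.

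Symbols, transcript lengths and GC content came by Ensembl identifier from GENCODE M21 (GRCm38); 32897 of 37620 identifiers matched, and rows without a match held 0.178% of counts. Promoter sequences came from RefSeq (GRCm38.p6). The members and lists were chosen with earlier results of these data known.

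Counts were fitted in R 4.3.3 with edgeR 4.0.16 (filterByExpr, minimum count 10 and total 15; TMM; robust two-sided quasi-likelihood F test; Benjamini-Hochberg over 12068 genes; threshold 0.05). SE values were derived from the F statistic. CPM used TMM-scaled library sizes. For the offsets, each library's log2 ratio to the mean (prior count 2) was smoothed against the longest transcript's log2 length and GC (mgcv 1.9.3, basis size 6). Alternatives were other scalings, DESeq2 1.42.0, limma-voom 3.58.1, edgeR's legacy method, other filters, the replicate number as a block, other offsets, and each library left out. Ratios to Acaca and the places of single libraries were added after the values were seen. Named genes were the 10 members, Phospho1, G6pd2, Scd1, Elovl6, the 3 genes with the smallest p in each list, and the 5 protein-coding genes of at least 10 CPM most like the members' mean profile; Mid1ip1, as the partner of Thrsp, and genes overlapping a member were added. The fits were tested on simulated data. Each library was 1 replicate, and p-values measure the spread between pools.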

Additional observations from a re-analysis of the deposited data

How the results depend on the processing

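Over 20 alternatives, 6 of the 10 genes (Acaca, Acly, Acss2, Me1, Mlxipl and Srebf1) kept a negative fold change in each. Fasn went to -0.91 with median-transcript and GC offsets, but turned to 0.083 with length and GC offsets, 0.44 with length offsets alone and 0.028 with the replicate block and offsets. Acacb turned to 0.23 with length offsets alone. Thrsp turned to -0.037 with length and GC offsets and -0.045 with the block and offsets. G6pdx, at zero with TMM, was at 0.016 with RLE, 0.067 with upper-quartile scaling, 0.0014 without mitochondrial genome genes, 0.00024 with edgeR's legacy method, 0.0045 with a filter of 1 CPM in 3 libraries, and 0.26 and 0.24 without wild type 3 and without knockout-labelled library 1 (-0.18 to 0.26 over the libraries left out). Adding G6pd2 counts left it at zero to 2 decimals.

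Of the 10 genes, 1 fell (Acaca) with total counts only, without mitochondrial genome genes, with DESeq2 and with the replicate block, 0 to 2 fell when 1 library was left out (Acaca and Acly without wild type 2), and 0 fell otherwise. Over all genes, against 197 higher and 908 lower, the counts were 29 and 1389 with total counts only (2.05% of calls higher against 17.8%), 493 and 1350 with DESeq2, 113 and 619 with limma-voom, 1 and 0 with length and GC offsets (1451 and 1335 at an unadjusted p under 0.05 in edgeR), 112 and 180 with offsets on the median transcript, 4 and 12 with length offsets alone, 0 and 0 with the block and offsets (1299 and 1175 at an unadjusted p under 0.05), and 1 and 0 at an adjusted p under 0.01. Leaving out 1 library gave 0 to 688 higher and 0 to 1383 lower: 0 and 0 without wild type 1 (629 and 1622 at an unadjusted p under 0.05), 688 and 1383 without wild type 2, 31 and 366 without wild type 3, and 298 and 994, 47 and 258, and 2 and 0 without knockout-labelled libraries 1, 2 and 3. The cause of these changes was not tested.

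Same-numbered libraries showed no common deviation (correlations 0.14, -0.53 and 0.03), and the correlations of unlike-numbered libraries ran from -0.42 to 0.54. With deviations taken from the mean of 3 libraries in each group, these values cannot show whether the numbers pair the libraries. With the replicate block, Acaca was at -1.88 (edgeR adjusted p = 0.0024), 223 genes were higher and 976 lower, and 1 of the 10 genes fell.

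With the median transcript length, 5 genes kept their place in the order in wild type and 3 in the knockout-labelled libraries, and the mean ratio of Acacb to Acaca went from 1.36 to 0.20 in wild type and from 3.04 to 0.45 in the knockout-labelled libraries, because the median annotated transcript of Acaca (1058 bases) is far shorter than its longest. With nuclear counts in place of TMM all 10 kept their place.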

Other observations

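The protein-coding genes whose log2 levels over the 6 libraries were most like the mean standardized profile of the 10 genes were Upf3a (r = 0.98), Golim4 (r = 0.97), Ece1 (r = 0.97), Ubr2 (r = 0.97) and Ftsj3 (r = 0.97). Of 6020 eligible genes, 124 had r over 0.9. With 6 libraries that share a common trend with transcript length, these values are a description only. Of the members, Acly (r = 0.99) and Acaca (r = 0.96) followed the mean profile most closely and Thrsp ran against it (r = -0.74), though each is part of that mean.

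Within the hepatocyte list, used as a check for another lipogenic cell type, Cyp2e1, a cytochrome P450, held nearly all of the signal. It had 504.2, 1029 and 1452 CPM in wild type 1, 2 and 3 and 388.9, 1071 and 453.2 CPM in the knockout-labelled libraries, so the groups overlapped, with the highest level in wild type 3 and the lowest in knockout-labelled library 1. Alb, the albumin gene, was at most 1.08 CPM in any library.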
